A study of Mus musculus with 2 samples.

Results

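Listed histone-mark events were examined at Hmga2 and Nr6a1, a pair of genes that the let-7 family of microRNAs is known to repress, in mesenchymal stromal cells (MSCs) of the mouse. Every event of 6 deposited lists was taken that fell within the mm9 window from 119700000 to 119950000 on chromosome 10 (Hmga2) or from 38550000 to 38850000 on chromosome 2 (Nr6a1). That gave 16 of 21418 events, all 16 in the Nr6a1 window and 0 in the Hmga2 window. The groups were Dicer knockout (KO) cells, which lack the ribonuclease that cuts microRNA precursors, and Dicer wild-type (WT) cells. Both were monoclonal immortalized lines, called fibroblasts in the sample titles, cultured in Alpha-MEM with serum and given no treatment that the labels name before they were fixed with formaldehyde. The labels describe 1 H3K27ac ChIP-seq sample (chromatin immunoprecipitation and sequencing) per genotype, while no sample there stands for the H3K4me3 and H3K36me3 lists, whose genotypes come from their names.

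Each list held the events of 1 mark that had more reads in 1 genotype, and it gave 1 value per genotype, pooled over replicates for H3K27ac. No replicate error can therefore be given, and no test between genotypes was possible. Genotype and clone cannot be told apart. In chromatin from many cells, more cells with a mark and more mark per cell cannot be told apart either. The identity of the cells and the loss of Dicer were not checked here, because the lists hold positions without gene names and no gene table in mm9 was used. Library depth is unknown, so the reads behind each event set its precision.

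Let-7 microRNAs are cut from their precursors by Dicer and pair through the seed, bases 2 to 8, with sites in target messenger RNAs. HMGA2 is a chromatin protein that binds AT-rich DNA through its AT-hooks. It is abundant in embryonic and proliferating mesenchymal cells and low in most adult tissues. NR6A1, also called germ cell nuclear factor, is an orphan nuclear receptor that represses pluripotency genes such as Oct4 in the early embryo. H3K4me3 marks promoters, H3K27ac marks active promoters and enhancers, and H3K36me3 is laid down along gene bodies as they are transcribed.

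Mature microRNAs named let-7 or miR-98 are shown from RefSeq, GRCm38.p6, with the seed in capitals. Only those whose names end in 5p or have no such ending were taken. Their levels were not measured in these lists, and sites for them in Hmga2 and Nr6a1 were not examined. Of the 11 sequences, from 13 genes, 10 shared the seed GAGGUAG:
mmu-let-7a-5p: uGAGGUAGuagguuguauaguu
mmu-let-7b-5p: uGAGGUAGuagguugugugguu
mmu-let-7c-5p: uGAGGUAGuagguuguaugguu
mmu-let-7d-5p: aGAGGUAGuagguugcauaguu
mmu-let-7e-5p: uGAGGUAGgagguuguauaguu
mmu-let-7f-5p: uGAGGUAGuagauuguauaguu
mmu-let-7g-5p: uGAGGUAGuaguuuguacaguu
mmu-let-7i-5p: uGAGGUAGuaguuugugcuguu
mmu-let-7k: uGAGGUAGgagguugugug
mmu-miR-98-5p: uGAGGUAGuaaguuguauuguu
The remaining sequence had the seed GAGGUAU:
mmu-let-7j: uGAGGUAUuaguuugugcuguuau

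In the Nr6a1 window all 3 marks had events higher in KO, and none of the 3 lists of events higher in WT had any. There were 5 H3K27ac events, 1 H3K4me3 event and 10 H3K36me3 events. Over the whole series, 82.5% of listed H3K27ac events were higher in KO, as were 11.8% of listed H3K4me3 events and 33.8% of listed H3K36me3 events. The H3K27ac events at Nr6a1 thus had the usual direction for the mark, and the H3K4me3 event the less common one for its mark. The H3K36me3 events had the direction of the shorter list over the whole series, but of the longer list on chromosome 2. There the KO list of H3K36me3 held 208 events, against 172 in the WT list. For that mark, events higher in KO were predicted by the program GPS and events higher in WT by the program GEM. The share of 33.8% and the numbers on chromosome 2 thus mix program with direction. The 10 H3K36me3 events lay close together and are not 10 separate observations of direction.

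The single H3K4me3 event lay at 38639995 on chromosome 2, with 456.6 KO reads and 54.4 scaled WT reads. Scaled reads are those that the authors' software multiplied by a factor so that the genotypes can be compared. Before scaling, the WT reads at this event numbered 25.4. The ratio of KO to WT reads was 8.39, with a 95% interval of 5.70 to 13.3 that covers counting error only. The median ratio over the 738 H3K4me3 events higher in KO was 4.10, and 81.0% of them had a smaller ratio than the Nr6a1 event. By the −log10 q of the list, 77.96 in the authors' deposited table, it ranked 59 among the 738. The next listed H3K4me3 event higher in KO was 3851 kb below the window, and on the other side it was 12185 kb above.

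Whether this event lies at a start of Nr6a1 was not tested, since RefSeq's positions are in GRCm38.p6 and were not carried over to mm9. RefSeq places 2 starts for Nr6a1, both on the minus strand of chromosome 2. Their promoter stretches, 250 bases before to 50 after each start, are shown with CG dinucleotides in capitals because H3K4me3 is known to favour CG-rich promoters. The start at the lower coordinate has this stretch, chr2:38784466-38784765 in GRCm38.p6:
Nr6a1 lower start: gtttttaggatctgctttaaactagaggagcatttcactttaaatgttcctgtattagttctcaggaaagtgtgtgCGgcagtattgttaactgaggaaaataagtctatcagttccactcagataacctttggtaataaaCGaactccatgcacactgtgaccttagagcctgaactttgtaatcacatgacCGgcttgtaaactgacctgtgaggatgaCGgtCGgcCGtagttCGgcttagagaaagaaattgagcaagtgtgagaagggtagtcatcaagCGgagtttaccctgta
The start at the higher coordinate has this stretch, chr2:38926412-38926711 in GRCm38.p6:
Nr6a1 upper start: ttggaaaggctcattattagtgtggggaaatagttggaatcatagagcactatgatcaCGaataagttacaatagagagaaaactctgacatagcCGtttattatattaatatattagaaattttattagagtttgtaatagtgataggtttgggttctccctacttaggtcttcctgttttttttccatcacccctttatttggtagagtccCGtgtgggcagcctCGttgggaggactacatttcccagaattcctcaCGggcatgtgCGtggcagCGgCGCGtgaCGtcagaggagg
The lower one holds 8 CG dinucleotides, read on either strand alike, and the upper one 10, against a median of 7 over 32851 promoters of the same length, of which 94.6% hold at least 1. At least as many were held by 48.6% of promoters for the lower start and by 43.5% for the upper start, so neither stretch is unusual in CG content. The stretch at the start of Hmga2 holds 12, a number reached by 39.6% of promoters.

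The 5 H3K27ac events were higher in KO by 2.55 to 4.04 times. At 38626799 there were 472.0 KO reads and 180.1 scaled WT reads, giving a ratio of 2.62 (95% interval 2.22 to 3.10). At 38629858 there were 596.0 reads in KO and 225.1 in WT, a ratio of 2.65 (2.29 to 3.07). These 2 events were merged into 1 region at a distance of 5 kb, and their ratios were nearly equal. At 38635347 the reads were 662.5 in KO and 164.0 in WT, a ratio of 4.04 (3.43 to 4.76). At 38640632, 637 bp from the H3K4me3 event, they were 479.3 in KO and 187.8 in WT, a ratio of 2.55 (2.17 to 3.01). The fifth event stood alone at 38790046, 149414 bp from the nearest event of any mark, with 334.2 reads in KO and 93.2 in WT and a ratio of 3.59 (2.87 to 4.48).

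Among these 5, the event at 38635347 had the most reads in KO, and its interval lay above those of the 3 others near the H3K4me3 event. Its interval overlapped that of the lone event at 38790046. Summed over the 5 events, there were 2544 KO reads and 850.2 scaled WT reads, and the ratio was 2.99 (2.78 to 3.22). The median of the 5 ratios was 2.65, against 2.87 over the 8323 H3K27ac events higher in KO. The change in this mark at Nr6a1 was therefore of a size common in its list, although 88.3% of the list had fewer KO reads than the event at 38635347.

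**Figure D1:**
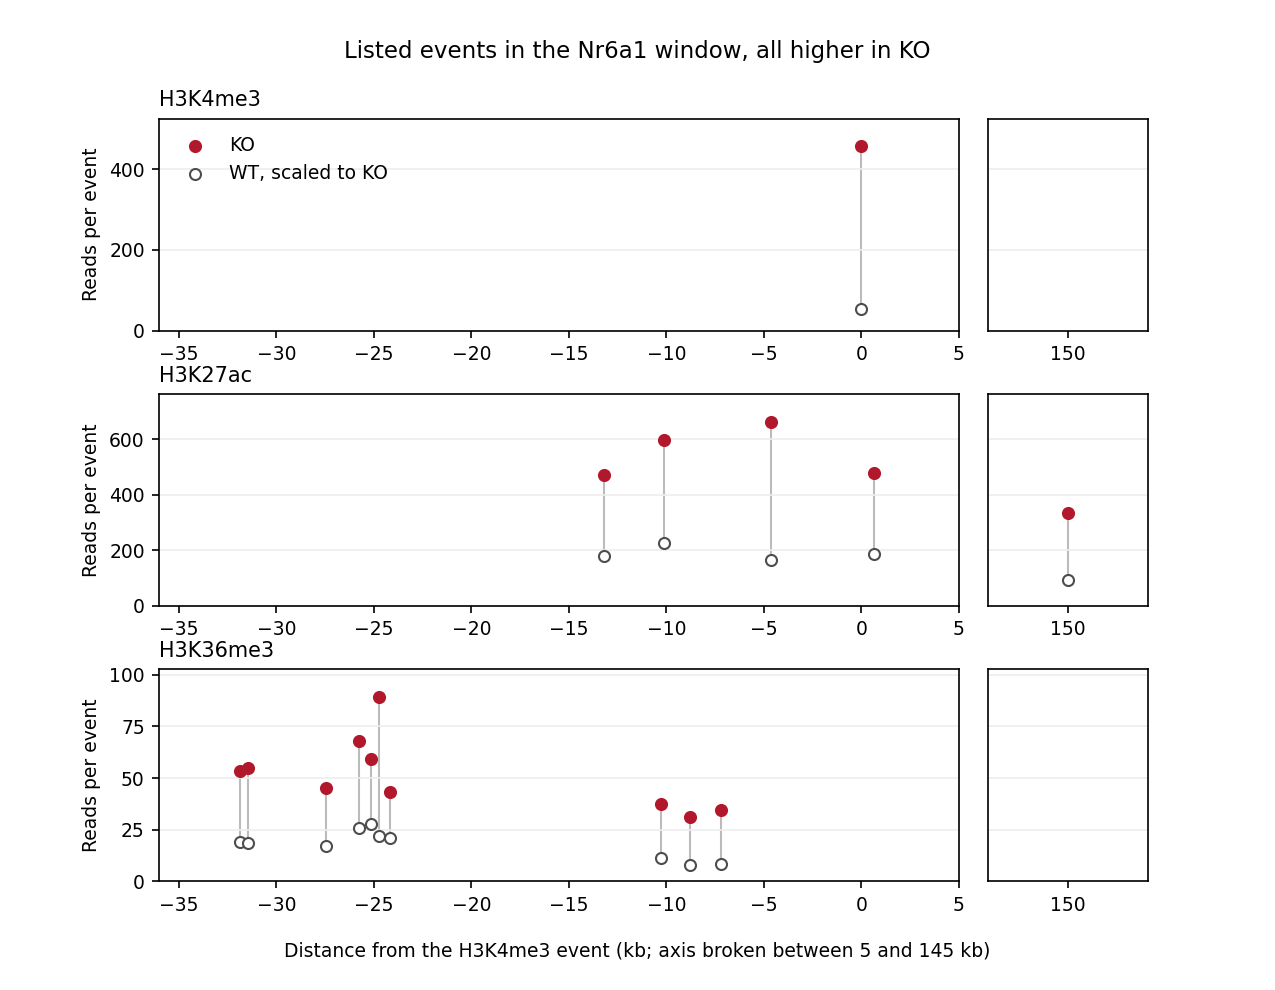
Reads per event in KO (filled) and WT, scaled to KO (open), for the 3 marks, against the distance in kb from the H3K4me3 event in the Nr6a1 window, with the axis broken where no event lies. Every filled point is above its open point, and 15 of the 16 events lie within 32.5 kb, with the fifth H3K27ac event far to the right.

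H3K36me3, the mark of transcribed gene bodies, had 10 events in KO, all below the H3K4me3 event in coordinate. They fell into 2 regions when merged within 5 kb. The first, from 38608145 to 38615798, held 7 events with 413.0 KO reads and 150.7 scaled WT reads, for a ratio of 2.74 (2.34 to 3.21). The second, from 38629742 to 38632812, held 3 events with 102.5 KO reads and 27.7 scaled WT reads, and its ratio was 3.70 (2.60 to 5.32). The intervals of the 2 regions overlapped. The second region lay among the H3K27ac events, and its first event was 116 bp from the H3K27ac event at 38629858.

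Single H3K36me3 events rested on few reads, 31.0 to 89.3 in KO (median 49.2) and 8.0 to 27.5 scaled reads in WT (median 18.7). Before scaling, the WT reads were 13.9 to 47.8 per event, and the WT values that follow are scaled. The largest number in KO was at 38615269, with 89.3 reads in KO and 22.0 in WT, a ratio of 4.06 (2.76 to 6.12). It ranked 73 among 1709 events by −log10 q. The smallest ratio was at 38615798, where 43.3 reads in KO stood against 20.7 in WT, a ratio of 2.09 (1.30 to 3.33). The highest was 4.13 (2.21 to 8.52) at 38632812, from 34.3 reads in KO and 8.3 in WT. In the first region, the events at 38608145 and 38608533 had 53.3 and 54.7 reads in KO against 18.8 and 18.6 in WT, ratios of 2.84 and 2.94. The event at 38612541 had 45.0 reads in KO against 17.2 in WT, a ratio of 2.62. Next to the event with the most reads, 38614230 had 68.0 in KO against 25.9 in WT (ratio 2.63), and 38614853 had 59.4 in KO against 27.5 in WT (ratio 2.16). KO reads in this region were highest at 38615269 and WT reads at 38614853. In the second region, the events at 38629742 and 38631201 had 37.2 and 31.0 reads in KO against 11.4 and 8.0 in WT, ratios of 3.26 and 3.88, and both genotypes had fewer reads per event than in the first. Every pair of the 10 intervals overlapped, which is not a comparison of the ratios, and differences between single events were not tested. The median of the 10 ratios was 2.89, below the median of 4.06 in the list, and the summed ratio was 2.89 (2.51 to 3.34).

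**Figure D2:**
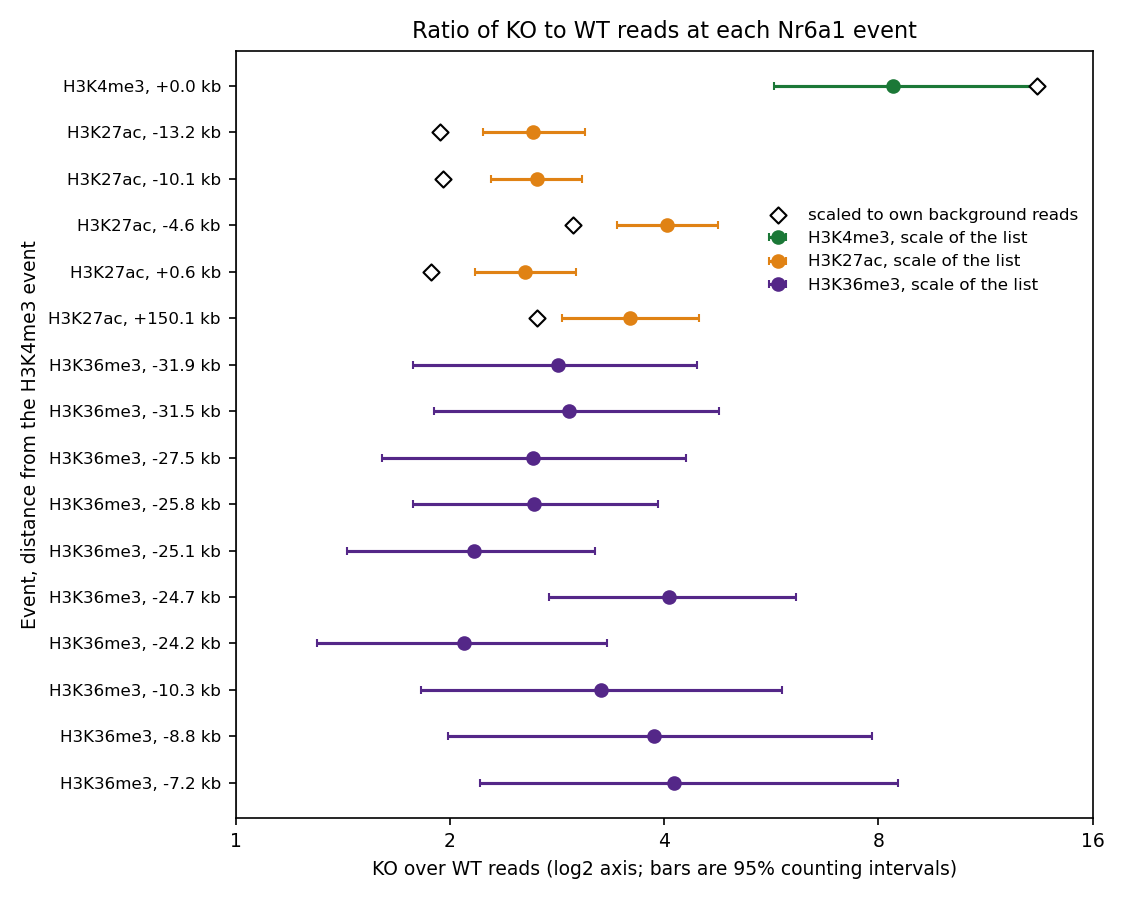
Ratio of KO to WT reads at each of the 16 events in the Nr6a1 window on a log2 axis, with 95% counting intervals at the scale of the lists (coloured) and, for H3K4me3 and H3K27ac, the ratio after each genotype is divided by its own background reads (open diamonds). At the scale of the lists all 16 ratios are above 2, and the H3K4me3 ratio of 8.39 is the highest. For H3K36me3 every event of the KO list has a ratio of at least 2.03. For H3K4me3 every event of the KO list on chromosome 2 has a ratio of at least 2.05.

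The lists also give a column of expected signal, called background reads here and not defined in the sources used, with 1 value per chromosome for H3K27ac and H3K4me3. On chromosome 2 H3K27ac had a value of 216.9 in KO and 188.5 in WT, and H3K4me3 had 145.7 in KO and 108.0 in WT. The 5 H3K27ac events held 1.54 to 3.05 times the background reads in KO and 0.582 to 1.41 times in WT. The H3K4me3 event held 3.13 times the background in KO and 0.235 times in WT. WT reads at Nr6a1 were thus at most 1.41 times this value, and KO reads were above it at each of the 6 events. The latter held for every event of these 2 KO lists on chromosome 2, so it is not particular to Nr6a1. The fewest KO reads listed there were 254.0 for H3K27ac and 181.4 for H3K4me3.

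Measured in units of own background, the H3K27ac ratios were 1.88 to 2.98 and the summed ratio was 2.21, against 2.99 at the scale of the list. The H3K4me3 ratio was 13.3, against 8.39. For H3K36me3 the background reads are local and are given for KO only, and the 10 events held 1.58 to 3.27 times that value in KO.

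**Figure D3:**
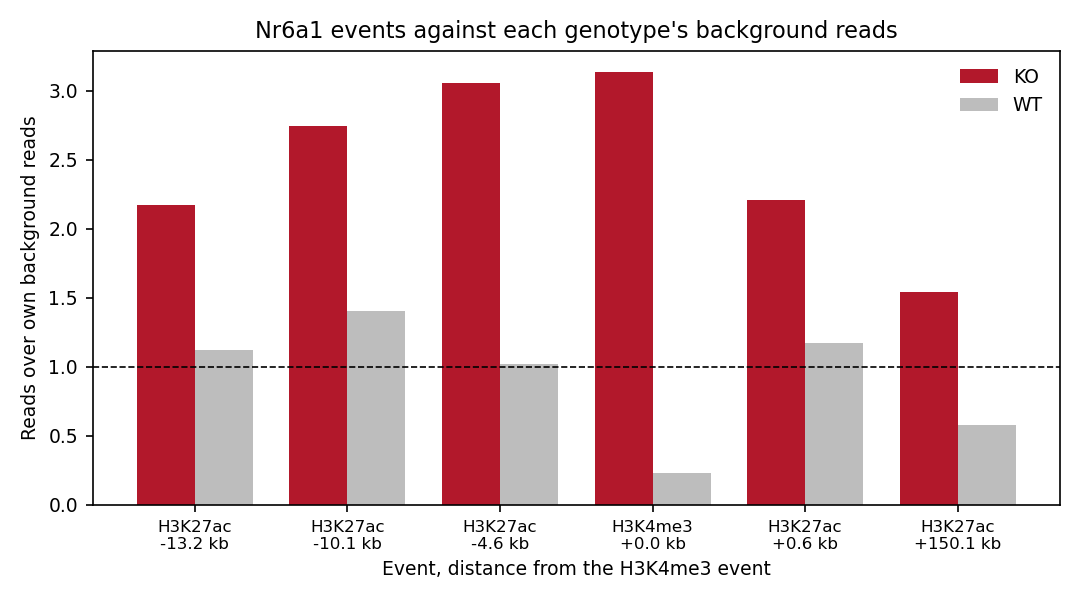
Unscaled reads divided by the background reads of the same genotype on chromosome 2, in KO (left bar of each pair) and WT (right bar), at the H3K27ac and H3K4me3 events of the Nr6a1 window. KO bars stand between 1.54 and 3.13 and WT bars between 0.235 and 1.41, with the dashed line at a value of 1.

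To see how usual such a window is, the genome was cut into tiles of the same length, 300 kb, in register with the Nr6a1 window. Of 8481 tiles, 23.7% held an H3K27ac event higher in KO, 6.31% an H3K4me3 event higher in KO and 6.49% an H3K36me3 event higher in KO. For events higher in WT, none of which lay at Nr6a1, the shares were 8.29%, 18.5% and 10.2% for the same marks. No event of any list was held by 55.4% of tiles, and by 52.4% of those on chromosome 2. Events of exactly these 3 lists and no other were held by 118 tiles, 1.39%, the Nr6a1 window included. At least 5 H3K27ac events higher in KO were held by 7.17% of tiles, and at least 10 H3K36me3 events higher in KO by 0.436%. The number of H3K36me3 events depended on how events were counted: merged within 5 kb they formed 2 regions, a number reached by 2.25% of tiles, and with the −log10 q minimum raised to 5 only 1 remained, where 1.59% of tiles held at least 1. With at least 50 reads there were 5, reached by 0.413% of tiles. The 5 H3K27ac events formed 4 regions, a number reached by 5.61% of tiles. These ways of counting tiles were chosen after seeing the data. These shares are descriptions, since tiles take no account of gene density.

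The 3 tiles of the other 117 whose summed ratios were most like those of Nr6a1 lay on chromosomes 11, 8 and 2. Likeness was the sum over the 3 marks of the absolute difference in log2 ratio. The nearest, from 54750000 to 55050000 on chromosome 11, was 0.44 away, with ratios of 3.73 for H3K27ac, 8.51 for H3K4me3 and 2.69 for H3K36me3. The next, from 73950000 to 74250000 on chromosome 8, was 0.48 away, and the third, from 118950000 to 119250000 on chromosome 2, was 0.60 away. The genes in them were not looked up, for want of a gene table in mm9.

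The Nr6a1 window can hold more than Nr6a1. In RefSeq's GRCm38.p6 table, used only for names and order, the protein-coding neighbours of Nr6a1 are Nr5a1, a nuclear receptor of steroid-producing tissues, and Olfml2a. The long noncoding RNA gene Nr6a1os and the microRNA genes Mir181a-2 and Mir181b-2 overlap it. Which of these genes an event belongs to was not tested. Outside the window, the nearest events of any list were H3K27ac events higher in KO, 158 kb below its start, with 460.8 reads in KO and 222.6 in WT, and 164 kb above its end, with 403.0 reads in KO and 126.6 in WT. The ratios there were 2.07 (1.78 to 2.42) and 3.18 (2.63 to 3.87).

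Hmga2 had no listed event in any mark or direction. None was listed for H3K27ac higher in KO, H3K27ac higher in WT, H3K4me3 higher in KO, H3K4me3 higher in WT, H3K36me3 higher in KO or H3K36me3 higher in WT. Reads of neither genotype are therefore given there. An unlisted site may carry a mark at similar levels in KO and WT, may carry little of it, or may differ by too little to reach the authors' threshold, a −log10 q of 2. These cases cannot be told apart from the lists. On chromosome 10, the listed event with the fewest reads had 238.7 in KO for H3K27ac, 159.0 for H3K4me3 and 22.0 for H3K36me3, each in the list of events higher in KO, and 257.0, 149.0 and 30 in WT in the lists of events higher in WT.

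A tile without events was common. Of 10180 tiles of 250 kb, the length of the Hmga2 window, 58.9% held no event of any list, and on chromosome 10 it was 249 of 500 tiles, 49.8%. For the commonest lists, 21.5% of such tiles held an H3K27ac event higher in KO and 16.1% an H3K4me3 event higher in WT. An H3K4me3 event higher in KO was held by 5.28% and an H3K36me3 event higher in KO by 5.54%. An H3K27ac event higher in WT was held by 7.00% and an H3K36me3 event higher in WT by 8.79%. The H3K36me3 shares again come from lists of different programs. These shares too are descriptions, since tiles take no account of gene density, while the Hmga2 window was chosen for a gene.

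**Figure D4:**
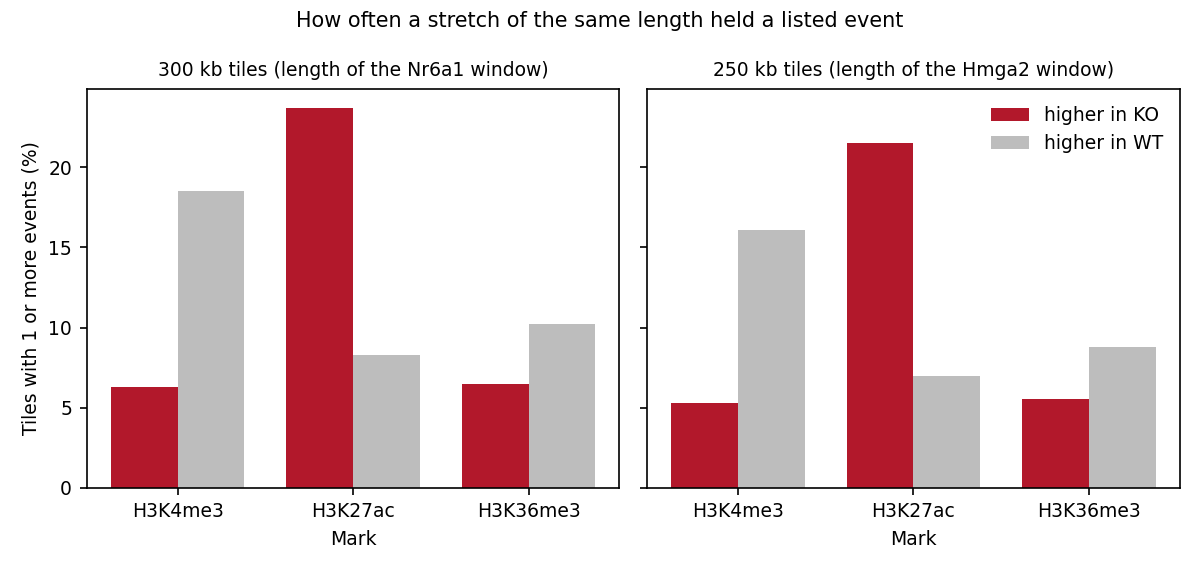
Percentage of tiles with at least 1 listed event, for events higher in KO (left bar of each pair) and higher in WT (right bar), by mark, in tiles as long as the Nr6a1 window (left panel) and the Hmga2 window (right panel). Events higher in KO are commonest for H3K27ac, in 23.7% and 21.5% of tiles, and events higher in WT for H3K4me3, in 18.5% and 16.1%.

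The nearest events to the Hmga2 window lay above it. From 120020094 to 120103561, 70.1 to 154 kb beyond the end of the window, there were 13 H3K27ac events higher in KO. They had 295.8 to 823.6 reads in KO (median 371.9) and 83.8 to 227.3 scaled reads in WT (median 141.9). Their sum was 5682 reads in KO and 1783 in WT, and the ratio of these sums was 3.19 (3.03 to 3.35), or 2.91 in units of own background. Ratios of single events ran from 2.18 (1.82 to 2.62), at 120103561, to 4.71 (4.04 to 5.51), at 120072947, and the event at 120072947 also had the most reads in KO. No H3K4me3 or H3K36me3 event was listed within 200 kb above the window. Hmga2's neighbours by name are Msrb3, a methionine sulfoxide reductase, and Llph, and to which gene these events belong was not tested.

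Below the window, 6 H3K36me3 events higher in KO lay between 119580863 and 119583569, at least 116 kb from its start, with 307.0 reads in KO against 119.0 in WT and a ratio of 2.58 (2.16 to 3.09). Farther off were an H3K27ac event higher in WT, with 84.2 scaled reads in KO and 314.0 reads in WT, and an H3K36me3 event higher in WT, with 33.2 scaled reads in KO and 93.2 reads in WT. Their KO to WT ratios were 0.268 (0.206 to 0.345) and 0.356 (0.213 to 0.596). The next H3K27ac event higher in KO below Hmga2 was 8493 kb away. With the median chromosome set to 1, background reads in KO over those in WT stood at 0.820 (H3K27ac) and 0.834 (H3K4me3) on chromosome 10, where Hmga2 lies, and at 1.01 and 1.05 on chromosome 2. The part of this difference in what was listed near Hmga2 was not tested.

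**Figure D5:**
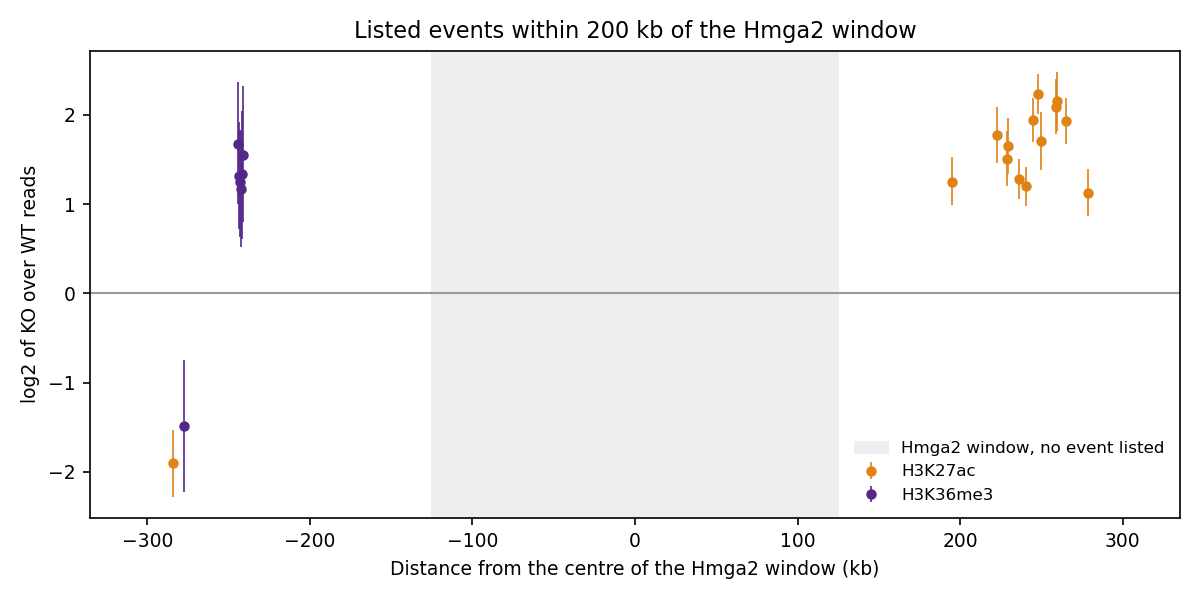
log2 ratio of KO to WT reads, with 95% counting intervals, of every listed event within 200 kb of the Hmga2 window, against the distance in kb from the centre of the window (shaded). The window holds no event, 13 H3K27ac events higher in KO lie above it, and 6 H3K36me3 events higher in KO and 2 events higher in WT lie below it.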

How the data were processed

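The submitters' processing notes name mm9 as the mouse build and TopHat 1.4, whose role they do not give here. The 6 lists, 1 per mark and direction, hold events predicted by GPS or GEM, per the file headers and names. The H3K36me3 list of KO and both lists of H3K27ac came from GPS, the others from GEM. The H3K27ac lists pool replicates, per the file names, and whether the other lists do is not stated. In each list the deposited IP column is an estimated count of reads in the higher genotype, and the deposited control column is a scaled signal of the other genotype. The deposited fold is the ratio of both, −log10 q and p values start at 2 for q, and 3 further deposited score columns were not used.

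The scale factor was sought among steps from 0.3 to 3, every 0.0005. Only events whose IP value was whole and whose control value was above 0 were used. Each step was scored by the share of control values that were whole multiples (within 0.06), beyond the share given by chance. Steps with at least 0.9 of the best score were kept. Among the largest of these, the step with the highest score was taken, since divisors of a true step fit too. WT had been multiplied by 0.85 (H3K27ac), 2.15 (H3K4me3) and 0.575 (H3K36me3) in the KO lists. Of the values used there, 88.7% of 3971 came out whole for H3K27ac (8323 events in the list), 94.4% of 463 for H3K4me3 (738 events) and 96.3% of 1308 for H3K36me3 (1709 events). The factor was applied to every event of a list. Intervals are exact conditional binomial (Clopper-Pearson) intervals of unscaled reads and cover counting error only. Reads carry no molecular identifiers and are not independent molecules. Factors were recovered in 6 of 6 simulated lists. In these every value used was a whole multiple by construction, unlike in the deposited lists, so this checks the search only. Values were computed with pandas 2.3.3, NumPy 2.4.6 and SciPy 1.17.1 in Python 3.11.15 and plotted with matplotlib 3.10.9. The genes and windows were chosen with earlier results of these data known, and every event in the windows is reported. Other let-7 target genes were not analysed here, because no gene table in mm9 was used.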

Additional observations from a re-analysis of the deposited data

How the results depend on the processing

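With windows 50 kb wider on each side, the Hmga2 window still held 0 events of any list and the Nr6a1 window 0 events higher in WT. The other alternatives for these counts (a −log10 q of at least 5, at least 50 reads, merging within 5 kb, narrower windows) can only keep a count of 0 and say nothing of it. The sign of each ratio at Nr6a1 is fixed, since each event there came from a list that holds only events higher in KO. The alternatives for the ratios thus bear on the size of a ratio and not on its sign. The summed H3K27ac ratio of 2.99 was 2.21 scaled to own background reads and 2.78 with the factor of the other list, and without the lone event at 38790046, an alternative chosen after seeing the data, it was 2.92. The H3K4me3 ratio of 8.39 was 13.3 scaled to own background reads. The 10 H3K36me3 events numbered 1 at a −log10 q of at least 5, 5 at 50 reads or more and 2 after merging, which are fewer by construction, and the ratio of the 1 remaining event was 4.06, against 2.89 summed over all. Of the 38 single-event values, 32 stayed within the event's own interval. These were 16 with 1 read added and 16 with the factor of the other list, both slight changes to a ratio. The 6 outside it were all of the values scaled to own background, for the H3K27ac and H3K4me3 events. No background scale was possible for H3K36me3. No paired analysis was possible because each genotype has a single value for a mark, which also means that no fit could leave a replicate out.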

Other observations

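Within 5 Mb below the Hmga2 window, 0 H3K27ac and 0 H3K4me3 events higher in KO were listed, against 1 H3K27ac and 45 H3K4me3 events higher in WT, while H3K36me3 had 6 higher in KO and 5 higher in WT. Within 5 Mb above it, there were 17 H3K27ac events higher in KO, 13 of them in the group next to the window, against 1 higher in WT. For H3K4me3 the numbers above the window were 2 higher in KO and 29 higher in WT. For H3K36me3 they were 2 higher in KO and 19 higher in WT. All of chromosome 10 had 288 H3K27ac events in the KO list and 112 in the WT list. For H3K4me3 these totals were 31 (KO list) and 567 (WT list), and for H3K36me3 66 and 237. The Nr6a1 window lay at the edge of a stretch with listed events: within 5 Mb below it the lists had 18 H3K27ac events higher in KO, against 2 higher in WT. For H3K4me3 there were 1 higher in KO and 9 higher in WT below it, and for H3K36me3 2 higher in KO and 4 higher in WT. The H3K27ac event 164 kb above the window was the only event of any list within 5 Mb above. All of chromosome 2 had 686 H3K27ac events in the KO list and 151 in the WT list. For H3K4me3 these totals were 57 (KO list) and 212 (WT list), and for H3K36me3 208 and 172. Over each whole chromosome, too, listed H3K27ac was mostly higher in KO and H3K4me3 mostly higher in WT. Whether the stretches near the windows differ from their chromosomes was not tested.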
